A study of Mus with 9 samples.

Results

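The genes described here are 9 interferon-induced genes, Ifit1, Ifit3, Isg15, Irf7, Stat2, Usp18, Bst2, Ifi27 and Rsad2, measured in the mouse hippocampus. They were found in the tables by gene symbol. Each had 1 probe set (the group of short probes that measures a gene), so 9 of the 22206 probe sets were used, and the probe sets name 22662 genes in all. SAMP8 is an inbred mouse strain that ages early and loses spatial memory, and SAMR1 is its related strain that ages normally. There were 3 groups with 3 arrays each. The methods describe the SAMP8 mice as male and 16 weeks old on entering the study, and give no separate age or sex for SAMR1. Dosing and testing followed, so the mice were older when the hippocampus was taken. The SAMR1 and SAMP8 groups received vehicle, which the sample records call saline and the methods call water. The TG-treated SAMP8 group received trigonelline (TG), a plant alkaloid found in coffee and fenugreek. It was given orally for 30 days at a daily 5 mg/kg, and dosing went on through 8 days of water maze testing. All groups were tested in the maze before the hippocampus was taken.

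Interferons are signalling proteins that cells release when they sense foreign or misplaced nucleic acid. They bind receptors that switch on the JAK kinases, which activate transcription factors, STAT2 among them. With IRF9, STAT2 enters the nucleus and raises the transcription of a broad set of antiviral genes. In the brain, microglia, astrocytes, endothelium and choroid plexus all respond to interferon, and a raised interferon response is a known feature of the aging brain.

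Values are the authors' group averages, given as log2 signal, and each difference is the first group's average minus the second's on that scale. The averages carry no error, values per array were not analysed here and the authors' p-values were not used. No difference below is therefore given with a test, and no neighbouring averages can be called separate or alike. A probe set is called higher or lower where its averages differ by more than 1.5-fold, which is 0.58 on the log2 scale. The share of all 22206 probe sets past that limit in the same comparison is given as the background. Whole hippocampus was measured, so a difference in the number of cells of a type and a difference in RNA per cell cannot be told apart. Values written as with TG are those of TG-treated SAMP8, and differences with TG are against vehicle-treated SAMP8. Each of the 3 comparisons shares a group with each of the others, so their values are set side by side and their likeness is not counted as a result.

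The group averages of 7 of the 9 genes stayed within 1.5-fold of each other in every comparison, and Ifit3 and Ifi27 were the exceptions. Ifit3 had a higher average in SAMP8 than in SAMR1 and a higher one still in TG-treated SAMP8. The group averages of Irf7 spanned 0.09 and those of Usp18 0.02. No member was more than 1.5-fold lower in any of the 3 comparisons.

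**Figure D1:**
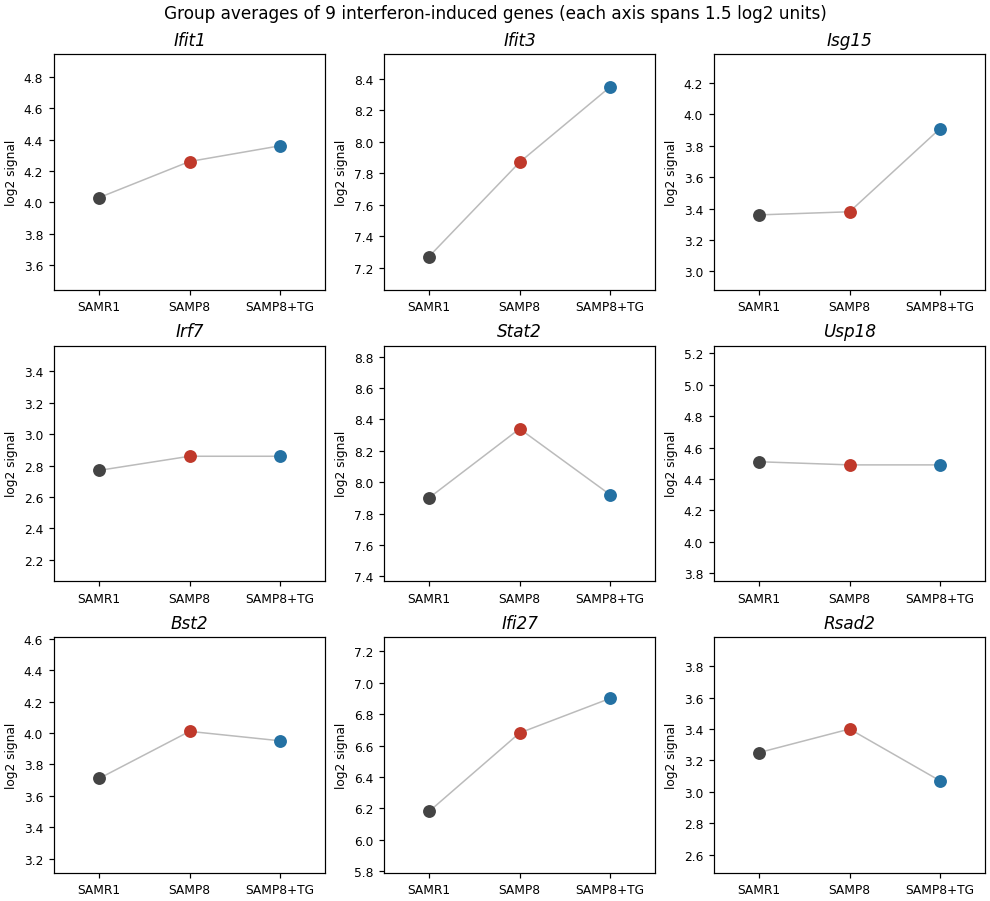
Group averages of the 9 genes as log2 signal (vertical axis, spanning 1.5 log2 units in every panel) in SAMR1, SAMP8 and TG-treated SAMP8 (horizontal axis, SAMP8+TG); each point is the authors' average of a group and has no error bar. Ifit3 runs from 7.27 in SAMR1 to 8.35 in TG-treated SAMP8, while Usp18 stays between 4.49 and 4.51.

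The genes that carry the signal and amplify it come first. Stat2 encodes a subunit of the transcription factor complex that interferon activates. It lies on chromosome 10 from 128270498 to 128292853 (GRCm38, the build of the array annotation, as are all positions here). Its averages were 7.90 in SAMR1, 8.34 in SAMP8 and 7.92 with TG. SAMP8 was thus the highest of the groups, and the TG-treated group stood 0.02 above SAMR1. The difference was 0.44 between SAMP8 and SAMR1, which is 1.36-fold, and -0.42 between TG-treated SAMP8 and SAMP8, which is 1.34-fold lower. Neither passed the limit. They lay at the percentiles 90.2 and 9.1 of all probe sets. The first part of the Stat2 span is shared with Apof, whose own averages were 3.65 in SAMR1, 3.88 in SAMP8 and 3.95 with TG.

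Irf7, the transcription factor that drives production of interferon alpha, lies on chromosome 7 from 141263183 to 141266499. It stood at 2.77 in SAMR1 and at 2.86 in both SAMP8 groups. These averages are near the lowest value in the tables, 2.39, and the Irf7 signal lay at or below the percentile 0.5 of all probe sets in every group. Signal rank describes how bright a probe set is and not how abundant its transcript is. At such a dim signal a small change of the transcript may not be detectable.

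The modifier pair Isg15 and Usp18 comes next. Isg15 encodes a ubiquitin-like protein that is attached to other proteins after interferon exposure, and Usp18 encodes the protease that removes it and also damps signalling at the interferon receptor. Isg15, on chromosome 4 from 156199424 to 156200818, stood at 3.36 in SAMR1, 3.38 in SAMP8 and 3.91 with TG. The vehicle groups lay 0.02 apart, and the TG-treated group stood above both. The difference between TG-treated SAMP8 and SAMP8 was 0.53, or 1.44-fold, which falls short of the limit. It lay at the percentile 94.2 of all probe sets and at 97.0 within its signal class (probe sets ranked by mean signal and split into 20 equal classes). The Isg15 signal is dim, between the percentiles 4.4 and 14.9 in the 3 groups. Usp18, on chromosome 6 from 121245906 to 121270917, had averages of 4.51 in SAMR1 and 4.49 in each of the SAMP8 groups. Its largest difference was thus 0.02.

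Ifit3 and Ifit1 encode related antiviral proteins built of tetratricopeptide repeats, of which IFIT1 binds viral RNA that lacks the host's cap modification. They lie close together on chromosome 19. Ifit3 runs from 34583119 to 34588982 and Ifit1 from 34640889 to 34650009. Ifit3 had averages of 7.27 in SAMR1, 7.87 in SAMP8 and 8.35 with TG. SAMR1 was the lowest group and TG-treated SAMP8 the highest. The difference between SAMP8 and SAMR1 was 0.60, or 1.52-fold, just past the limit. Between TG-treated SAMP8 and SAMP8 it was 0.48, or 1.39-fold, short of the limit. Between TG-treated SAMP8 and SAMR1 it reached 1.08, or 2.11-fold, at the percentile 99.2 of all probe sets and at 98.7 within its signal class. Ifit1 followed the same order of groups with smaller steps, at 4.03, 4.26 and 4.36. Its differences of 0.23, 0.10 and 0.33 did not pass the limit in any comparison.

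The probe set of Ifit3b, a close copy of Ifit3 on chromosome 19 from 34607530 to 34613403, gave a similar picture with larger steps. Ifit3b stood at 6.80 in SAMR1, 7.87 in SAMP8 and 8.46 with TG. It was higher by 1.07 (2.10-fold) in SAMP8 than in SAMR1, by 0.59 (1.51-fold) with TG than without, and by 1.66 (3.16-fold) in TG-treated SAMP8 than in SAMR1. Because the copies are so alike, their probe sets may share target RNA, and how much of each signal comes from which gene was not tested. The remaining genes of the family did not pass the limit in any comparison. Ifit2, from the same cluster, stood at 5.51 in SAMR1 and at 5.64 in both SAMP8 groups. Ifit1bl1 stood at 4.94, 5.34 and 5.00, and Ifit1bl2 at 3.76, 3.60 and 3.71 in SAMR1, SAMP8 and TG-treated SAMP8. The span of Ifit1bl1 overlaps that of Ifit1, and the averages of Ifit1bl1 had the order of Stat2, with SAMP8 highest, rather than the order of Ifit3. Of the 6 genes of the family, 2 were more than 1.5-fold higher in SAMP8 than in SAMR1, namely Ifit3 and Ifit3b, against a background of 5.00%. These families were looked up after values had been seen.

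**Figure D2:**
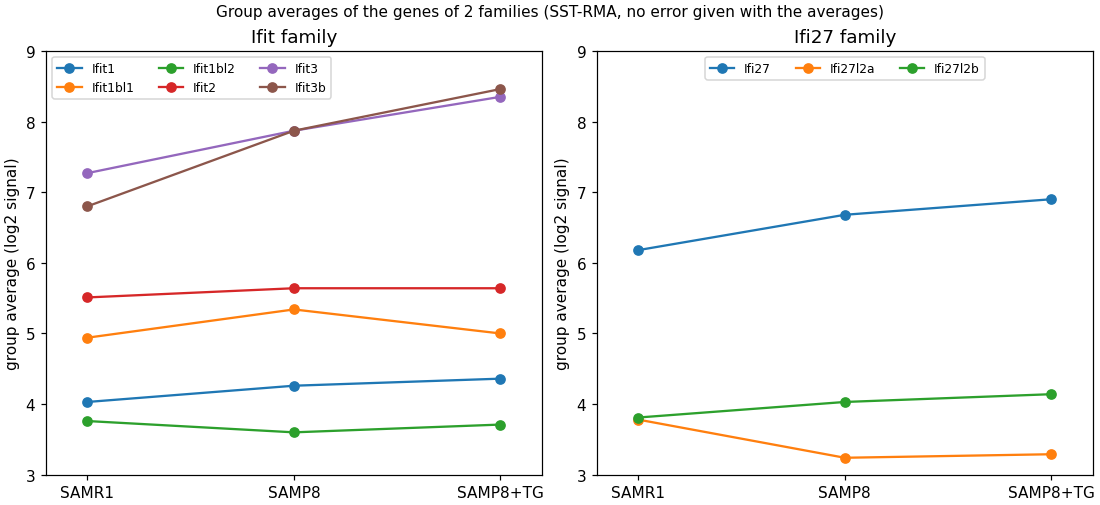
Group averages (log2 signal, vertical axis) of all 6 measured Ifit genes on the left and the 3 genes of the Ifi27 family on the right, in SAMR1, SAMP8 and TG-treated SAMP8 (SAMP8+TG); points are the authors' averages, with no error. Ifit3 and Ifit3b end at 8.35 and 8.46 in TG-treated SAMP8, whereas Ifi27l2a lies below its SAMR1 average of 3.78 in both SAMP8 groups.

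Ifi27, named for its induction by interferon alpha, lies on chromosome 12 from 103434189 to 103440245. Its averages were 6.18 in SAMR1, 6.68 in SAMP8 and 6.90 with TG. The order of the groups was that of Ifit3. Between SAMP8 and SAMR1 the difference was 0.50, or 1.41-fold, and between TG-treated SAMP8 and SAMP8 it was 0.22, or 1.16-fold. Neither passed the limit. TG-treated SAMP8 stood above SAMR1 by 0.72, or 1.65-fold, which did pass it and lay at the percentile 96.7 of all probe sets. Ifi27l2a, whose annotated span contains that of Ifi27, differed in the other direction, with averages of 3.78 in SAMR1, 3.24 in SAMP8 and 3.29 with TG. Its difference between SAMP8 and SAMR1 was -0.54. Ifi27l2b stood at 3.81, 4.03 and 4.14. Where gene models overlap, the probes of each probe set were not mapped here, so the assignment of the signal to Ifi27 or Ifi27l2a is uncertain.

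Rsad2 and Bst2 are antiviral effectors at other steps of infection. Rsad2 encodes viperin, a radical SAM enzyme that makes a nucleotide which halts viral polymerases, and lies on chromosome 12 from 26442743 to 26456452. It stood at 3.25 in SAMR1, 3.40 in SAMP8 and 3.07 with TG, so that the treated group was the lowest. The difference with TG was -0.33, or 1.26-fold lower, at the percentile 13.9 of all probe sets and at 4.8 within its signal class. The Rsad2 signal is dim, at the percentiles 3.0 in SAMR1, 6.1 in SAMP8 and 1.5 with TG, so this difference lies near the floor. Bst2 encodes tetherin, which holds budding virus particles at the cell surface, and lies on chromosome 8 from 71534255 to 71537472. Its averages were 3.71 in SAMR1, 4.01 in SAMP8 and 3.95 with TG. Both SAMP8 groups stood above SAMR1, by 0.30 without TG and 0.24 with it, and 0.06 apart from each other.

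Counted over the members, 1 of 9 (Ifit3) was more than 1.5-fold higher in SAMP8 than in SAMR1, against a background of 5.00% of all probe sets, and 0 were lower, against 6.08%. Between TG-treated SAMP8 and SAMP8, 0 of 9 were higher (background 4.48%) and 0 lower (background 3.74%). Between TG-treated SAMP8 and SAMR1, 2 of 9 were higher (Ifit3 and Ifi27, background 5.62%) and 0 lower (background 4.83%). At these backgrounds 9 genes would hold about 0 or 1 call, so the counts rest on single genes. The median difference of the members was 0.23 between SAMP8 and SAMR1, where the median of all probe sets was 0.00. It was 0.00 with TG, against 0.01 for all probe sets, and 0.24 between TG-treated SAMP8 and SAMR1, against -0.01. Over the 4 members outside the dimmest 25% of probe sets these medians were 0.47, 0.11 and 0.37. For comparison, in SAMP8 vs SAMR1 the signal class of Ifit3 and Stat2 had a median of 0.10, that of Ifi27 0.04 and that of Usp18 -0.09.

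Differences of any size in SAMP8 vs SAMR1 were above 0 for 8 of the 9 members, against 49.5% of all probe sets, and 1 was below 0 (Usp18 at -0.02), against 49.0%. With TG, 4 members were higher than in SAMP8 (Ifit1, Ifit3, Isg15 and Ifi27), 3 were lower (Stat2, Bst2 and Rsad2) and 2 were at 0.00 (Irf7 and Usp18), against 50.0% of all probe sets higher and 48.3% lower. In TG-treated SAMP8 vs SAMR1, 7 were higher and 2 lower (Usp18 and Rsad2), against 48.1% and 50.4%. The members with the largest differences with TG had opposite signs, with Isg15 at 0.53 and Ifit3 at 0.48, and with Stat2 at -0.42 and Rsad2 at -0.33.

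**Figure D3:**
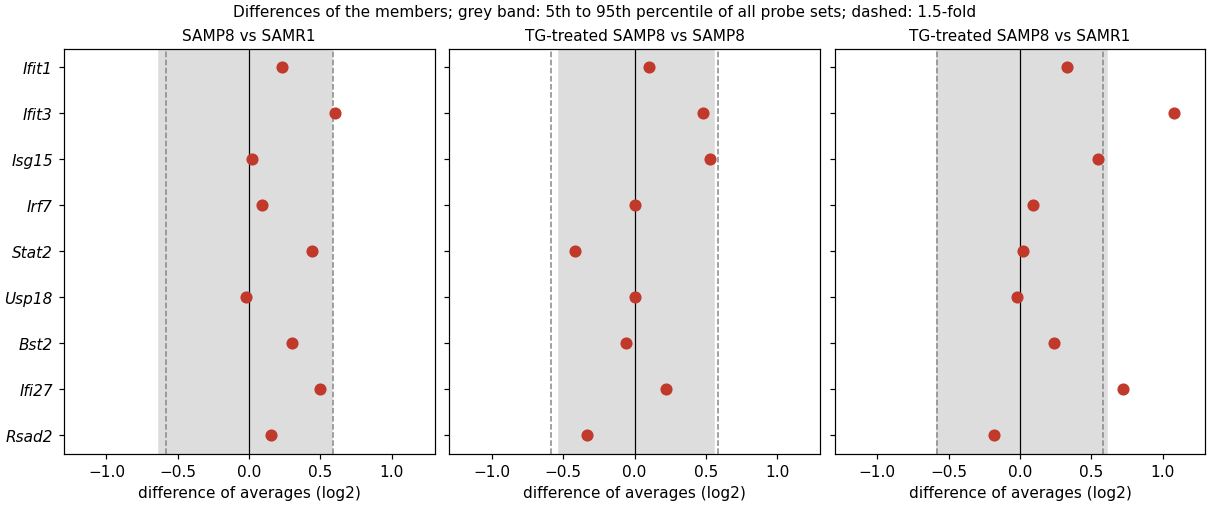
Difference of group averages (log2, horizontal axis) of each of the 9 genes (vertical axis) in the 3 comparisons; the grey band runs from the 5th to the 95th percentile of all probe sets and the dashed lines mark a 1.5-fold difference. Ifit3 lies outside the band in SAMP8 vs SAMR1 (0.60) and in TG-treated SAMP8 vs SAMR1 (1.08), Ifi27 in the latter (0.72), and no gene lies outside it in TG-treated SAMP8 vs SAMP8.

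Of the members, 5 (Ifit1, Isg15, Irf7, Bst2 and Rsad2) lay in the dimmest 25% of all probe sets by mean signal, and 4 (Ifit3, Stat2, Usp18 and Ifi27) were not. Dim probe sets as a class were shifted in the strain comparison. Among the probe sets with the signal of Bst2, the median difference between SAMP8 and SAMR1 was -0.09, and the middle 90% ran from -0.60 to 0.38. The Bst2 difference of 0.30 therefore lay at the percentile 82.3 of all probe sets and at 91.8 of its class. For Ifit3 the class ran from -0.61 to 0.69 with a median of 0.10, and its difference of 0.60 lay at the percentile 95.4 of all probe sets and at 91.3 of its class.

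The wider interferon pathway was described with 119 further genes in 6 lists by role, of which 112 were measured by a probe set of their own. Between SAMP8 and SAMR1, 9 of these were more than 1.5-fold higher (8.04%, background 5.00%) and 5 lower (4.46%, background 6.08%). Between TG-treated SAMP8 and SAMP8, 6 were higher (5.36%, background 4.48%) and 5 lower (4.46%, background 3.74%). In TG-treated SAMP8 vs SAMR1, 4 were higher (3.57%) and 1 lower (0.893%), below the backgrounds of 5.62% and 4.83%. The median differences were 0.02, -0.01 and 0.01, close to those of all probe sets. Without the dimmest 25% of probe sets the median in the strain comparison was 0.15. The median of all probe sets left by this filter was not computed. Signal classes themselves differed there, with a median of 0.10 for the class of Ifit3 and -0.09 for that of Bst2. How much of the 0.15 is particular to the pathway was therefore not tested. Of the 72 pathway genes then left, 8 were higher (background 6.26%) and 3 lower (background 6.34%).

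Among the ligands, 17 interferon genes were measured. Between SAMP8 and SAMR1, 0 were higher (background 5.00%) and 3 were lower past the limit (17.6%, background 6.08%), namely Ifna1 (5.57 in SAMR1 and 4.73 in SAMP8), Ifna5 (8.62 and 7.79) and Ifne (4.09 and 3.39). With TG, Ifna1 stood at 5.45, Ifne at 4.03 and Ifnl3 at 6.24, which were higher than in SAMP8 by 0.72, 0.64 and 0.65. These were 3 of 17 ligands (17.6%, background 4.48%), and 0 were lower past the limit (background 3.74%). The median of the ligands was -0.19 in the strain comparison and 0.18 with TG. The interferon alpha genes are near copies of each other, so the signal of any single one is uncertain. Ifna5, Ifna1 and Ifne also lie close together on chromosome 4, starting at 88835525, 88850087 and 88879538. Whether they differ independently of each other was not tested. Ifna4, which starts between Ifna5 and Ifna1 at 88841816, was 0.21 higher in SAMP8 than in SAMR1. Ifnb1, the interferon made first after nucleic acid sensing, stood at 4.56 in SAMR1, 4.21 in SAMP8 and 4.36 with TG. Ifng, the interferon of T cells and natural killer cells, stood at 4.91, 5.43 and 5.53 and was 1.54-fold higher in TG-treated SAMP8 than in SAMR1. It was the only ligand of the 17 past the limit in that comparison (5.88% higher, background 5.62%), and 0 were lower (background 4.83%).

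The 6 receptor genes gave 0 calls in any comparison, where backgrounds of 3.74% to 6.08% in each direction leave about 0 calls among so few genes. Ifnar1 and Ifnar2, the chains of the receptor for interferon alpha and beta, differed by at most 0.14 between SAMP8 and SAMR1. Ifnar1 stood at 7.71, 7.85 and 7.73 and Ifnar2 at 9.25, 9.19 and 9.24 in SAMR1, SAMP8 and TG-treated SAMP8. Among the chains of the interferon gamma receptor, Ifngr1 stood at 7.46, 7.65 and 7.35 and Ifngr2 at 10.69, 11.22 and 10.91. Il10rb, a chain shared with interleukin receptors, was 0.40 higher in SAMP8 than in SAMR1 and 0.56 lower with TG than without. Ifnlr1 stood between 4.37 and 4.54.

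Downstream of the receptors, 0 genes of the signalling list passed the limit in any comparison, and the same backgrounds apply to this list and to the inhibitors. Irf9, the DNA-binding subunit that works with STAT2, stood at 5.50 in SAMR1, 5.83 in SAMP8 and 5.67 with TG. Of the kinases, Jak1 stood at 10.25, 10.54 and 10.52, Jak2 at 9.72, 10.06 and 9.91, and Tyk2 at 9.40, 9.57 and 9.17. Irf9 and these kinases each had a higher average in SAMP8 than in SAMR1, by 0.17 (Tyk2) to 0.34 (Jak2). With TG, Tyk2 differed by -0.40 and Jak1 by -0.02. The inhibitor list (5 genes measured, among them Socs1 and Socs3) gave 0 calls, with differences from -0.28 to 0.18.

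Sensors of foreign nucleic acid held some of the largest differences in the pathway. Ifih1, the sensor of long double-stranded RNA also called MDA5, stood at 5.00 in SAMR1, 5.82 in SAMP8 and 4.83 with TG. It was 1.77-fold higher in SAMP8 than in SAMR1 and 1.99-fold lower with TG than without. Mavs, the mitochondrial adaptor through which MDA5 signals, stood at 6.68, 7.11 and 6.29 and was 1.77-fold lower with TG. Tlr7, an endosomal receptor for single-stranded RNA, stood at 5.57, 6.43 and 5.86 and was 1.82-fold higher in SAMP8 than in SAMR1. Ikbke, a kinase that activates interferon regulatory factors, was 1.67-fold higher with TG, at 5.49 against 4.75. Of the 17 genes of this list, 2 were higher (11.8%, background 5.00%) and 0 lower (background 6.08%) in the strain comparison. With TG, 1 was higher (5.88%, background 4.48%) and 2 lower (11.8%, background 3.74%). In TG-treated SAMP8 vs SAMR1, 0 were higher (background 5.62%) and 0 lower (background 4.83%). At any size, 7 of the 17 were above 0 and 9 below in the strain comparison. The median of the list was -0.02 there and 0.03 with TG.

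Of 62 other interferon-induced genes, 7 were higher (11.3%, background 5.00%) and 2 lower (3.23%, background 6.08%) past the limit in SAMP8 vs SAMR1. In TG-treated SAMP8 vs SAMP8, 2 were higher (3.23%, background 4.48%) and 3 lower (4.84%, background 3.74%). Besides Ifit3b, the highest in SAMP8 was Samhd1, an enzyme that depletes the nucleotides viruses need, at 5.70 in SAMR1, 6.63 in SAMP8 and 5.95 with TG. It was 1.91-fold higher in SAMP8 and 1.60-fold lower with TG. Xaf1, Parp12, Oasl2, Irgm1 and Ifitm3 were also past the limit in SAMP8, by 0.62 to 0.79. Apol9a stood at 6.55, 5.67 and 6.28, lower in SAMP8 and higher with TG. Ube2l6, the conjugating enzyme for ISG15, was 0.69 lower in SAMP8 than in SAMR1. Ifitm1 and Slfn5 were each 0.59 lower with TG than without. In TG-treated SAMP8 vs SAMR1, 3 of the 62 were higher (4.84%, background 5.62%) and 1 lower (1.61%, background 4.83%). Among these, Irgm1, an immunity-related GTPase, was 0.63 higher, and Mx2, a dynamin-like antiviral GTPase, was 0.69 lower.

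**Figure D4:**
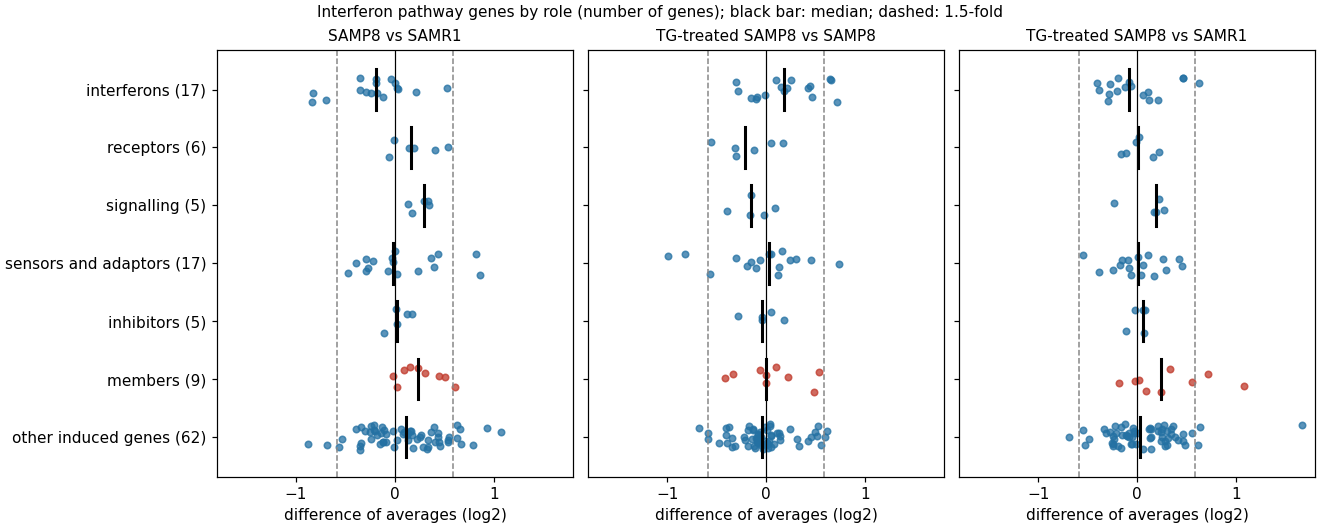
Difference of group averages (log2, horizontal axis) for the interferon pathway genes by role (vertical axis, number of measured genes in brackets) and for the 9 members (red), in the 3 comparisons; each point is a gene, with random vertical scatter, the black bar is the median and the dashed lines mark a 1.5-fold difference. The medians lie between -0.21 and 0.29, and the point at 1.66 is Ifit3b.

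The 3 pathway genes whose profile over the 3 groups was closest to the median profile of the members were Dtx3l, Jak1 and Slfn2, at Euclidean distances of 0.05, 0.06 and 0.08 on the log2 scale after centring each gene. The median profile itself stood at -0.18 in SAMR1, 0.04 in SAMP8 and 0.06 with TG. With only 3 group averages behind it, this likeness is a description.

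Cell type markers are read against the same backgrounds, 5.00% higher and 6.08% lower in SAMP8 vs SAMR1 and 4.48% higher and 3.74% lower with TG. Of 8 markers of hippocampal neurons, 1 was higher past the limit in SAMP8 than in SAMR1 and 1 was lower with TG, in both cases Prox1, a dentate granule cell marker, by 0.59 and 0.85. The differences of all 8 ran from -0.04 to 0.59 in SAMP8 vs SAMR1 and from -0.85 to 0.21 with TG. Neurod6 and Slc17a7, which mark excitatory neurons, spanned 0.03 and 0.10 over the groups. Wfs1, a CA1 marker, and Gad1, a marker of inhibitory neurons, were each 0.44 higher in SAMP8 and differed with TG by -0.48 and -0.35. Of the 10 microglia markers, 3 were higher past the limit in SAMP8 than in SAMR1 (Aif1 by 1.51, P2ry12 by 0.86 and Itgam by 0.70), and 1 was lower (Trem2 by 0.70). Over the whole list, 4 were above 0 and 6 below, with a median of -0.12 and a range from -0.70 to 1.51. The mean level of the microglia list was 7.67 in SAMR1, 7.80 in SAMP8 and 7.73 with TG. With TG, 0 of the 10 passed the limit and the median was -0.12. Of 6 astrocyte markers, Gfap, Gjb6 and Slc1a3 were higher in SAMP8, by 0.95, 0.87 and 0.62, and all 6 were above 0 with a median of 0.40. With TG, 0 passed the limit and the median was -0.07. The astrocyte list averaged 11.54, 12.01 and 11.83.

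Several lists of vascular, border and other cells held markers past the limit, some of them in both directions. Of 6 endothelial markers, 1 was higher in SAMP8 (Flt1) and 0 were called with TG, and the medians were 0.27 and -0.20. Of 6 border macrophage markers, 1 was higher in SAMP8 (Mrc1, 6.51 against 5.51), while 4 were below 0 and the median was -0.07. With TG, 0 of these were called. Of 6 choroid plexus markers, 2 were higher in SAMP8 (Ttr and Kl), and with TG 1 was higher (Ttr) and 1 lower (Kl), with medians of 0.46 and -0.01. Of 6 pericyte and smooth muscle markers, 2 were higher (Acta2 and Rgs5) and 1 lower (Tagln) in SAMP8, with a median of 0.41. With TG, 1 of them was higher (Tagln) and 2 were lower (Acta2 and Myh11), with a median of -0.25. Acta2 stood at 5.52 in SAMR1, 7.71 in SAMP8 and 5.54 with TG, and Tagln at 4.74, 3.91 and 4.62. Of 7 meningeal markers, 2 were higher (Igf2 at 1.58 and Ogn at 0.72) and 2 lower (Col1a2 at -0.64 and Lum at -0.60) in SAMP8, with a median of -0.03. With TG, 3 of them were lower (Igf2 at -1.89, Ogn at -1.10 and Dcn at -0.77), with a median of -0.15. The 5 oligodendrocyte markers gave 0 calls in SAMP8 and 1 with TG (Mag, higher). The thalamus list of 4 had 1 higher in SAMP8 and 1 lower with TG (Prkcd), and the striatum list of 5 had 0 calls and 1 lower with TG (Drd2). The lists of T and natural killer cells (6 measured) and of B and plasma cells (4) gave 0 calls in any of the 3 comparisons. In TG-treated SAMP8 vs SAMR1 (backgrounds 5.62% higher and 4.83% lower), 6 markers of other lists were higher past the limit. These were Ttr by 1.60, Rgs5 by 1.12, Aif1 by 1.07, Gfap by 0.84, Mrc1 by 0.76 and Tcf7l2 by 0.72. The 4 that were lower had differences of -1.32 (Prkcd), -1.28 (Dcn), -0.62 (Cx3cr1) and -0.62 (Drd2). Each marker list, of 4 to 10 measured genes, held at most 1 higher and 1 lower in this comparison. The part of any of these cell types in the averages of the interferon-induced genes was not tested.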

How the data were processed

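Hippocampal RNA was hybridized to Clariom S Mouse arrays, with 3 arrays per group by the sample records. The series text speaks of duplicate RNA samples, and a description field names a macrophage line, and neither was used to group samples. The authors normalized the intensities by SST-RMA in the Transcriptome Analysis Console (version 4.0.1 in the series text, a later release in the methods) and deposited, in 1 table for each of 2 comparisons, the group averages of 22206 probe sets as log2 signal rounded to 2 decimals. The tables also hold the authors' fold changes, p-values and false discovery rates, which were not used. The SAMP8 averages of both tables were identical (largest gap 0.0), so TG-treated SAMP8 and SAMR1 could be compared.

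Differences of averages were computed, and those beyond a fold change of 1.5 were counted, in Python 3.11.15 with pandas 2.3.3, after a check on artificial data. Percentiles were taken over all probe sets and within 20 classes of mean signal. The averages carry no error, and the number of arrays limits their precision.

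Symbols were matched exactly. For genes outside the members the brightest probe set was used. The genes named are the members, receptor and signalling genes, Ifnb1, Ifng, in each comparison up to 3 pathway genes highest and lowest past the limit, the 3 closest in profile, and markers past the limit. Other genes named, such as Neurod6, Slc17a7, Wfs1, Gad1, Apof, the Ifit and Ifi27 families, and pathway genes beyond the top 3, were added after their values were seen. Members and lists were chosen with earlier results of these data known. Positions are from RefSeq on GRCm38. Sequences were not used here, and 1 gene of the signalling list is not reported here.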

Additional observations from a re-analysis of the deposited data

How the results depend on the processing

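No paired analysis was possible because the deposited columns are group averages without replicate numbers, and for the same reason no array could be left out. Recentring on the median of all probe sets moved no count by over 1.5 times and no member by over 0.02. A fold limit of 1.1 gave 6, 3 and 5 members higher and 0, 2 and 1 lower in SAMP8 vs SAMR1, TG-treated SAMP8 vs SAMP8 and TG-treated SAMP8 vs SAMR1, and 45, 30 and 42 pathway genes higher and 35, 33 and 32 lower. Backgrounds at this limit were 33.0%, 32.4% and 31.6% higher and 32.5%, 31.0% and 33.3% lower. A limit of 2 gave 0, 0 and 1 members higher (Ifit3), 1, 0 and 1 pathway genes higher and 0 lower in each, with backgrounds of 0.797%, 0.437% and 1.12% higher and 1.43%, 0.324% and 0.684% lower. Leaving out the dimmest 25% of all probe sets, which leaves 4 members, the members' median difference was 0.47, 0.11 and 0.37 in the same order, against 0.23, 0.00 and 0.24 with all 9. In the strain comparison the median of the pathway genes was then 0.15 against 0.02, with no median of all probe sets computed under this filter. Of the 72 pathway genes left, 8 were higher in place of 9 of 112, and 3 were lower in place of 5 of 112. The backgrounds were 6.26% higher and 6.34% lower over 16653 probe sets. With cells that list several genes, 2 pathway genes in place of 1 were lower in TG-treated SAMP8 vs SAMR1. The other results under these alternatives moved by less than 0.1 in a median or 1.5 times in a count.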

Other observations

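Other interferon-inducible families, picked by symbol after values had been seen, are described here with no test. In the Pyhin family on chromosome 1, whose proteins bind DNA, 2 of 8 genes were more than 1.5-fold lower in SAMP8 than in SAMR1 (background 6.08%) and 0 were higher (background 5.00%). Mnda stood at 4.87 in SAMR1, 3.96 in SAMP8 and 3.86 with TG, and Ifi203 at 6.62, 6.02 and 5.90. The average of TG-treated SAMP8 was 0.10 below that of vehicle-treated SAMP8 for Mnda and 0.12 below it for Ifi203. The neighbouring Mndal differed the other way, at 4.34, 4.66 and 4.40. These genes are related in sequence, so how far their probe sets share target RNA was not tested.

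The 7 guanylate-binding protein genes, which are strongly induced by interferon gamma, gave 0 calls in any of the 3 comparisons, where backgrounds of 3.74% to 6.08% in each direction leave about 0 calls among 7 genes, and their differences with TG ran from -0.12 to 0.02. Of 8 immunity-related GTPase genes, 2 (Irgm1 and Irgm2) were higher in SAMP8 than in SAMR1 (background 5.00%), by 0.62 and 0.66, and 0 were called with TG (backgrounds 4.48% higher and 3.74% lower). In the Schlafen family of 10 genes, 1 was lower past the limit in SAMP8 than in SAMR1 (Slfn3 by 0.62, background 6.08%) and 1 with TG (Slfn5 by 0.59, background 3.74%). In TG-treated SAMP8 vs SAMR1, 1 Schlafen gene (Slfn3 at -0.71) and 2 Pyhin genes (Mnda at -1.01 and Ifi203 at -0.72) were lower (background 4.83%). In the same comparison 1 immunity-related GTPase gene (Irgm1 at 0.63) was higher (background 5.62%). These are descriptions of group averages, with no test.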
